A study of Mus musculus with 10 samples.

Results

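The 40 genes described here carry out DNA replication, the entry into the cell cycle and mitosis, and were listed by name, with earlier results of these data known. All 40 were found among the 24063 gene symbols of the deposited tables. RNA from quadriceps, a thigh muscle, was sequenced in 10 mice, 5 in a Control group and 5 in a group given a supplement called 1C-MIM in its drinking water. All were wild-type C57BL animals of 17 to 20 months. The supplement was given for 1 to 3 months, the Control mice drank plain facility water, and the composition of 1C-MIM is not stated in the labels. In both groups the tibialis anterior, a shin muscle, of the same animals was injured, and the quadriceps sampled was not. The question the comparison addresses is how expression in this muscle differed between supplemented and unsupplemented old mice.

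Cell division runs in a set order. Cyclin D with CDK4 or CDK6 starts the cycle by releasing E2F transcription factors from the RB protein, and cyclin E with CDK2 carries the cell into DNA synthesis. The 6 MCM proteins form the ring that unwinds DNA, PCNA clamps the polymerases onto it, and LIG1 joins the new fragments. Cyclins A and B with CDK1, the Aurora and Polo kinases, the spindle checkpoint, the anaphase-promoting complex (APC/C), the centromere and the motor proteins of the spindle then divide the chromosomes. A muscle fibre has left the cycle for good. Dividing cells in adult muscle are satellite cells, the muscle stem cells, and immune, connective tissue and vessel cells.

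Many mitotic genes share promoter elements, which are shown here for genes whose levels differed between the groups. RefSeq promoter sequences, from 250 bases before to 50 after the transcription start in build GRCm38.p6, were at hand for 32 of the 40 genes. The rule for printing took the 4 called genes with the smallest p, of which Tpx2 is named only. The sequences of the other 3 genes follow, 5′ to 3′ on the gene's strand, with capitals for 3 motifs read on either strand: TTTGAA (the core of the cell cycle homology region, bound by the MuvB complex), CCAAT (bound by NF-Y) and TTTGGCGC (bound by E2F).
Top2a, chr11:99024140-99024439, minus strand: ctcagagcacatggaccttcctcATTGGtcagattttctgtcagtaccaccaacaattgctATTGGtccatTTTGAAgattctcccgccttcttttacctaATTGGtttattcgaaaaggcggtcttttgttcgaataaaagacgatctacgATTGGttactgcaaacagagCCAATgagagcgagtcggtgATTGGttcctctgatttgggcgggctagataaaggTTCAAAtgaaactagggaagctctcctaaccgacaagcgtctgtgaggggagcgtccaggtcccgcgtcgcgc
Mcm5, chr8:75109259-75109558, plus strand: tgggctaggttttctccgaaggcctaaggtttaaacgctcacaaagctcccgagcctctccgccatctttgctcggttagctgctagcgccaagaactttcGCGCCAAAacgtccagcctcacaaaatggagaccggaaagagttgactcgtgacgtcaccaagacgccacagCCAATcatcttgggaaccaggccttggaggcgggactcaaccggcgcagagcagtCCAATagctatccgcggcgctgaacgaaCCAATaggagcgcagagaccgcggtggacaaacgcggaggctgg
Kif11, chr19:37376132-37376431, plus strand: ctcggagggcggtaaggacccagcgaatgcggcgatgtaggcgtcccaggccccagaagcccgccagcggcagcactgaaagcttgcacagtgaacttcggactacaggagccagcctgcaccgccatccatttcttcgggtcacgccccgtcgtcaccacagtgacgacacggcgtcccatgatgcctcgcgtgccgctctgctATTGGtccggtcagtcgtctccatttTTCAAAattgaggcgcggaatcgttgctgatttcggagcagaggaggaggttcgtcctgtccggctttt
The Top2a promoter held 6 CCAAT and 2 TTTGAA motifs, and that of Kif11 held 1 of each. The Mcm5 promoter held 3 CCAAT and 1 TTTGGCGC motif, with no TTTGAA in this window.

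TTTGAA stood in a promoter of 15 of the 32 genes, and in 20.2% of the 27025 genes of the RefSeq table. CCAAT stood in 25 of the 32 and in 41.1% of all genes. All 15 genes with TTTGAA also had CCAAT, a pair found in 8.0% of all genes. The E2F motifs were rarer: TTTCCCGC stood in 3 of the 32 genes and in 1.2% of all, and TTTGGCGC in 3 of the 32 and in 0.6% of all. TTTGAA stood in 7 of 12 genes called lower in 1C-MIM whose promoter was at hand: Aurka, Ccnb2, Cdk1, Kif11, Mki67, Top2a and Ube2c. It stood as well in genes that passed no test, among them Mcm2 and Prc1. These matches describe letters in 300 bases and no binding was measured.

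In the muscle as a whole, 14 of the 40 genes were lower and 1, Tpx2, was higher in 1C-MIM than in Control. A gene was called when its adjusted p was under 0.05, with edgeR's quasi-likelihood test and Benjamini-Hochberg adjustment over all 13880 genes tested. The largest fitted decreases among the tested genes were in Top2a (3.39-fold), Ube2c (3.26-fold) and Cdk1 (2.97-fold). Over all tested genes 11.8% were called lower and 9.78% higher. Mean expression was lower in 1C-MIM for 36 of the 40 genes and higher for 4. The 36 include untested genes with few reads and little difference, such as Bub1 (15 reads in Control, 12 in 1C-MIM) and Cdk6 (35 and 31). Among tested genes, 29 of these 33 and 6921 of all 13880 had a negative log2 fold change. In 13 of the 33 genes with enough reads to be tested, every 1C-MIM library lay below every Control library, an arrangement found in 7.98% of all tested genes. The same held for the untested Aurkb, which makes 14 of the 40. In 1 gene, Tpx2, every 1C-MIM library lay above, an arrangement found in 916 of all 13880 tested genes.

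Of the 40 genes, 33 had enough reads to be tested. The 7 others, Cdk6, Ccnb1, Aurkb, Plk1, Bub1, Cenpe and Cenpf, fell below the filter on low counts. Birc5 passed that filter through its Control libraries alone, since none of its 1C-MIM libraries reached 0.332 CPM (counts per 1000000 reads). Ccne1, Ccnb2, Cdk1, Cdc20, Ube2c and Kif23 reached it in only 1 to 4 of the 1C-MIM libraries. Being tested was thus not independent of being higher in Control for these genes, apart from Kif23, which reached it in 4 libraries of each group. With no filter, all 40 genes entered the edgeR fit, and 15 were called lower and 1 higher, beside 7.56% lower and 6.51% higher of all genes in that fit. The median log2 fold change of the 33 tested genes was -0.35, with 29 of them negative, against a median of 0.001 over all tested genes. Scaling by library totals alone, in place of trimmed-mean (TMM) factors, gave 18 genes lower and 1 higher, and over all genes 2896 lower and 606 higher in place of 1642 and 1357.

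**Figure D1:**
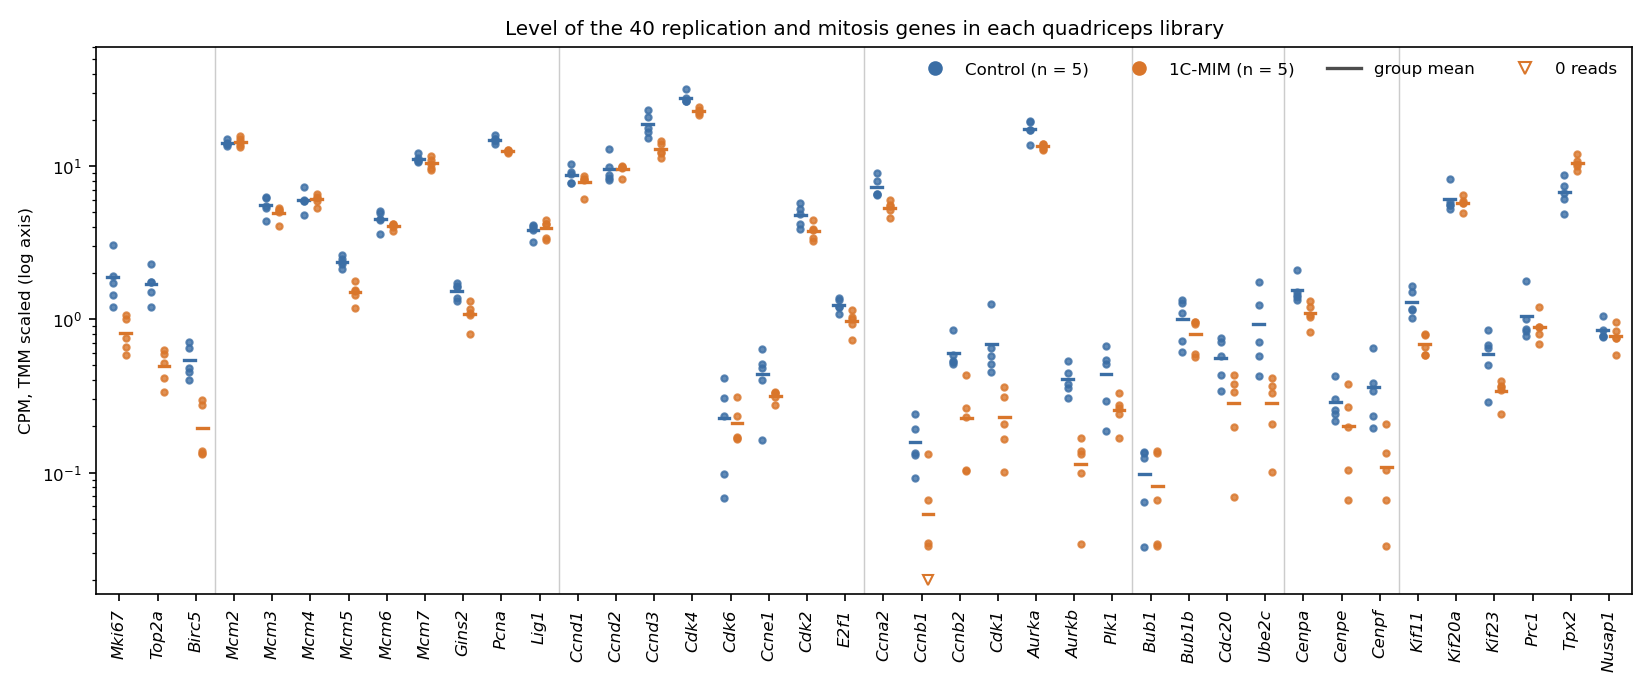
Expression of the 40 genes in each library, in CPM scaled by TMM on a log axis, ordered by role with grey lines between roles. Blue points are the 5 Control and orange points the 5 1C-MIM libraries, dashes are group means, and the open triangle marks a library with 0 reads. Top2a, Mki67, Mcm5 and Kif11 show separate groups, with 1C-MIM lower, and Tpx2 shows separate groups with 1C-MIM higher.

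The deposited libraries were of like depth, with 28521254 to 31771296 reads on the transcripts used. Most of the 40 genes were weakly expressed. Per transcript length, Control levels ran from 11.4 FPKM for Cdk4 and 6.51 for Pcna down to 0.0125 for Bub1 (means, n = 5). FPKM is the count per kilobase of transcript and per 1000000 counts. Aurka at 5.06 ± 0.575 and Ccnd3 at 4.86 ± 0.796 FPKM (SD, n = 5) did not differ from each other beyond their spread. Mki67 stood at 0.102 FPKM and Birc5 at 0.0863. In whole muscle RNA, fewer cells of a dividing type and less RNA per cell cannot be told apart, and this holds for every difference given here.

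The 3 general proliferation markers all fell, beside 11.8% of all genes, though Birc5 was tested through its Control libraries alone. Mki67 encodes Ki-67, a coat of mitotic chromosomes present in cycling cells. It had 90, 37, 47, 54 and 57 reads in Control 1 to 5, and 22, 17, 32, 30 and 20 in 1C-MIM 1 to 5. The groups did not overlap, although Control 1 stood high. Its log2 fold change was -1.20 ± 0.263 (SE), with an edgeR adjusted p of 0.00813. Top2a encodes topoisomerase II alpha, which untangles chromosomes before they part. It had 67, 37, 57, 47 and 52 reads in Control, and 12, 15, 19, 10 and 18 in 1C-MIM. The lowest Control library had close to double the reads of the highest 1C-MIM library. Top2a was 3.39-fold lower, at -1.76 ± 0.224 on the log2 scale (edgeR adjusted p = 0.000359). Birc5 encodes survivin, a subunit of the chromosomal passenger complex. It had 13 to 21 reads in Control and 4 to 9 in 1C-MIM, with no overlap and a log2 fold change of -1.44 ± 0.311 (edgeR adjusted p = 0.00757).

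The replication genes were less uniform: 3 of 9 fell, beside 11.8% of all genes, and 6 did not pass the test. Mcm5, a subunit of the MCM ring, had 77, 71, 77, 77 and 63 reads in Control, and 42, 52, 47, 46 and 36 in 1C-MIM. Every 1C-MIM library was below every Control library. Its log2 fold change was -0.66 ± 0.135 (edgeR adjusted p = 0.00558). The other 5 ring subunits did not pass the test. Mcm2 was at 14.1 ± 0.527 CPM in Control and 14.5 ± 0.968 in 1C-MIM (SD, n = 5). Mcm4 was at 6.003 ± 0.878 and 6.07 ± 0.461, Mcm3 at 5.54 ± 0.767 and 4.96 ± 0.511, Mcm6 at 4.54 ± 0.587 and 4.05 ± 0.176, and Mcm7 at 11.2 ± 0.581 and 10.5 ± 0.924. None of these 5 was called under any alternative run, and the fitted changes of Mcm2, Mcm4 and Mcm7 took both signs over the alternatives.

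Since the ring subunits share each library, their ratio is free of library scaling. The reads of Mcm5 divided by the summed reads of the other 5 MCM genes came to 0.066, 0.056, 0.058, 0.061 and 0.048 in Control, and 0.035, 0.046, 0.037, 0.041 and 0.03 in 1C-MIM. The groups did not overlap. The difference was -0.62 on the log2 scale. This ratio and the 2 given further on were chosen after the values of their genes had been seen, and are descriptions with no test. Leaving out each library in turn gave differences from -0.70 to -0.54.

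Pcna, the polymerase clamp, fell by a small amount. It had 438, 461, 455, 453 and 477 reads in Control, and 368, 358, 369, 379 and 384 in 1C-MIM. Both groups were tight and did not overlap. The log2 fold change was -0.25 ± 0.061 (edgeR adjusted p = 0.0121), and -0.08 with an adjusted p of 0.388 once each library's trend with transcript length was removed. Gins2, part of the CMG helicase with the MCM ring, had 40, 53, 53, 41 and 49 reads in Control against 32, 31, 35, 24 and 40 in 1C-MIM. Its groups overlapped slightly, its log2 fold change was -0.50 ± 0.166 (edgeR adjusted p = 0.0476), and the call was lost in 17 of 25 alternatives. Lig1, the ligase of Okazaki fragments, was at 3.83 ± 0.377 CPM in Control and 3.92 ± 0.523 in 1C-MIM and did not pass the test.

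Among the genes of cell cycle entry, 2 of 7 tested fell, beside 11.8% of all genes. Ccnd3 encodes cyclin D3, the D-type cyclin associated with muscle differentiation. It had 677, 466, 538, 556 and 622 reads in Control, and 407, 362, 367, 338 and 444 in 1C-MIM. No 1C-MIM library reached the lowest Control library, and the log2 fold change was -0.54 ± 0.114 (edgeR adjusted p = 0.00716). The other D-type cyclins did not pass the test: Ccnd1 was at 8.79 ± 1.05 and 7.87 ± 0.977 CPM, and Ccnd2 at 9.60 ± 1.96 and 9.53 ± 0.762 (Control and 1C-MIM, SD, n = 5). The ratio of Ccnd3 reads to those of Ccnd1 and Ccnd2 together was 1.03 ± 0.166 in Control and 0.753 ± 0.145 in 1C-MIM. The ratio overlapped between groups, since 1C-MIM 1 at 0.981 lay above Control 2 at 0.863. Its log2 difference was -0.45.

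Cdk4, the kinase partner of the D-type cyclins, had 819, 823, 863, 826 and 941 reads in Control and 674, 625, 693, 670 and 738 in 1C-MIM. The groups were separate, the log2 fold change was -0.29 ± 0.065 (edgeR adjusted p = 0.00948), and it was -0.12 with an adjusted p of 0.134 once the length trend had been taken out. Its relative Cdk6 had only 2 to 13 reads per Control library and 5 to 9 per 1C-MIM library. Cdk2, the S-phase kinase, was at 4.78 ± 0.764 CPM in Control and 3.75 ± 0.471 in 1C-MIM, with an adjusted p of 0.0691 in edgeR. E2f1, the activating E2F factor, was at 1.24 ± 0.115 and 0.970 ± 0.158 CPM (edgeR adjusted p = 0.132). Ccne1, cyclin E1, was at 0.439 ± 0.177 and 0.316 ± 0.0250 CPM (edgeR adjusted p = 0.294).

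The mitotic cyclins and kinases fell in all 4 genes that could be tested, beside 11.8% of all genes. Of the 4, Ccnb2 and Cdk1 each reached the filter level in 5 Control libraries and only 1 1C-MIM library. Cdk1, the main mitotic kinase, had 37, 14, 21, 16 and 17 reads in Control and 9, 6, 5, 3 and 11 in 1C-MIM. Control 1 was more than 1.5 times any other library, and the groups did not overlap. The log2 fold change was -1.57 ± 0.376 (edgeR adjusted p = 0.012). Ccnb2, cyclin B2, had 25, 18, 17, 16 and 16 reads in Control against 3, 3, 8, 13 and 7 in 1C-MIM. The 1C-MIM libraries were the more scattered, and the log2 fold change was -1.38 ± 0.344 (edgeR adjusted p = 0.0141). Ccna2, cyclin A2, had 233, 198, 212, 204 and 267 reads in Control and 174, 162, 155, 138 and 167 in 1C-MIM, which did not overlap. It fell by 0.44 ± 0.115 on the log2 scale (edgeR adjusted p = 0.0171), and without 1C-MIM 4 its adjusted p was 0.0552.

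Aurka encodes Aurora A, the kinase of the spindle poles. It had 570, 526, 448, 540 and 584 reads in Control and 371, 391, 422, 421 and 392 in 1C-MIM. In CPM, the lowest Control library, 13.8, lay just under the highest 1C-MIM library, 14.04. The log2 fold change was -0.38 ± 0.09 (edgeR adjusted p = 0.0117). With Control 1 and Control 5 both left out, the edgeR adjusted p was 0.062 for Aurka, 0.0535 for Ccnb2 and 0.0892 for Ccna2.

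The 3 untested genes of this role had few reads. Aurkb, the kinase of the chromosomal passenger complex, had 11, 11, 10, 14 and 16 reads in Control and 4, 1, 4, 5 and 3 in 1C-MIM. The groups did not overlap, and with no filter its log2 fold change was -1.78 (edgeR adjusted p = 0.00641). Ccnb1, cyclin B1, had 7, 4, 3, 6 and 4 reads in Control against 1, 0, 4, 1 and 2, where no filter gave an edgeR adjusted p of 0.121. A library with 0 reads still allows up to 3 reads by counting error. Plk1, the Polo kinase, had 6 to 20 reads in Control and 5 to 10 in 1C-MIM (edgeR adjusted p = 0.178 with no filter).

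**Figure D2:**
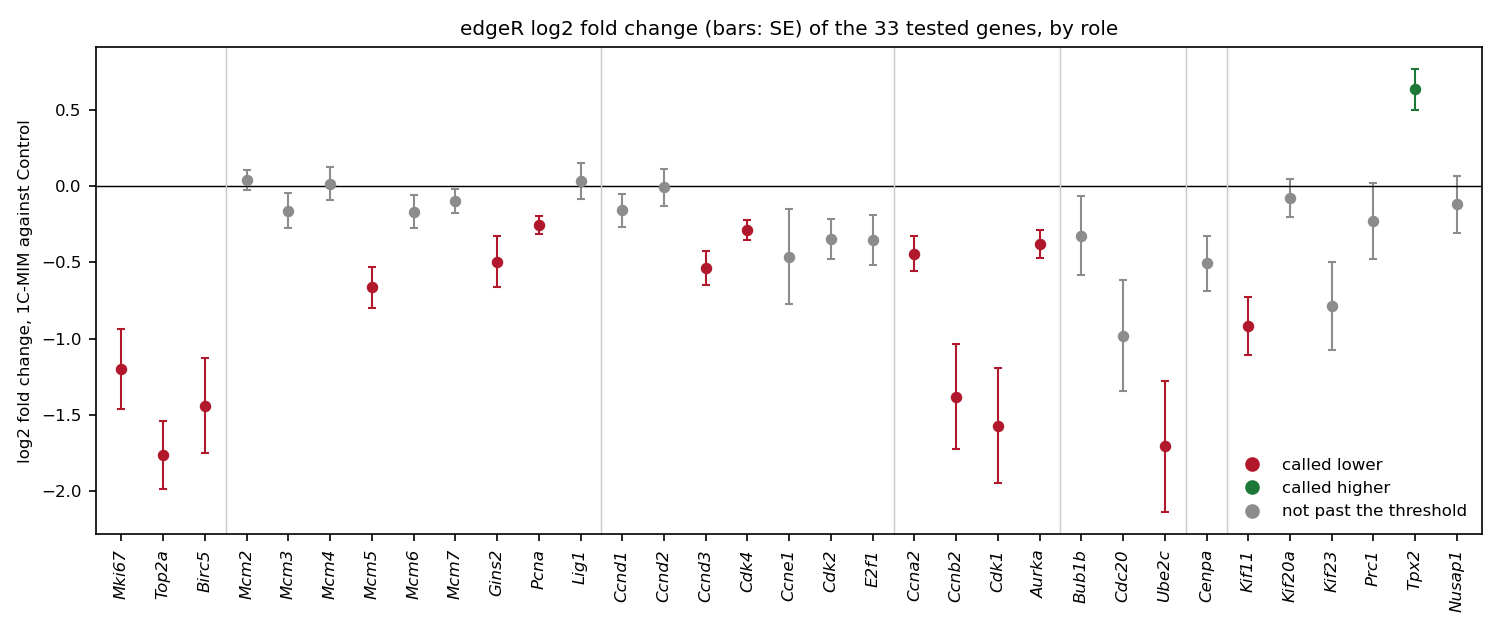
edgeR log2 fold change of 1C-MIM against Control for the 33 tested genes, ordered by role, with bars for the standard error. Red genes are called lower, the green gene higher, and grey genes did not pass an adjusted p of 0.05. The lowest value is Top2a at -1.76 and the highest Tpx2 at 0.64.

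In the checkpoint and APC/C role, 1 of 3 tested genes fell, beside 11.8% of all genes. A count this small gives no direction to this role. The gene was Ube2c, which reached the filter level in 5 Control and 2 1C-MIM libraries. It encodes the ubiquitin-conjugating enzyme that serves the APC/C. It had 36, 13, 23, 18 and 52 reads in Control and 12, 6, 11, 3 and 10 in 1C-MIM. Control ran from 0.424 to 1.75 CPM, and its lowest library, Control 2, lay just above the highest 1C-MIM library, 0.414. The log2 fold change was -1.71 ± 0.432 (edgeR adjusted p = 0.0156), and the adjusted p was 0.0854 with Control 1 and Control 5 left out. In the GRCm38 annotation, exons of Ube2c share 592 bases with Tnnc2, a fast-fibre troponin on the opposite strand at 12600 CPM. Whether counting used strand is not stated, so reads of the pair cannot be told apart. Cdc20, the activator of the APC/C, was at 0.562 ± 0.174 CPM in Control and 0.282 ± 0.148 in 1C-MIM (edgeR adjusted p = 0.0692). Bub1b, a checkpoint protein, was at 1.01 ± 0.327 and 0.804 ± 0.202 CPM (edgeR adjusted p = 0.376). Bub1, the checkpoint kinase, had 1 to 4 reads per library in both groups.

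No centromere gene passed the main test. Cenpa, the histone that marks the centromere, had 44, 43, 43, 45 and 62 reads in Control and 31, 35, 25, 31 and 40 in 1C-MIM. In CPM its groups were separated by a narrow gap, 1.33 against 1.32, and the log2 fold change was -0.51 ± 0.179 (edgeR adjusted p = 0.0586). Cenpf, an outer kinetochore protein, had 19, 6, 11, 12 and 7 reads against 3, 6, 1, 4 and 2. With no filter it was called lower, at -1.69 on the log2 scale (edgeR adjusted p = 0.0239). Cenpe, the kinetochore motor, had 7 to 13 reads in Control and 2 to 11 in 1C-MIM (edgeR adjusted p = 0.453 with no filter).

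Of the 6 spindle and cytokinesis genes, 1 fell, 1 rose and 4 did not pass the test. Counts this small, beside 11.8% of all genes lower and 9.78% higher, give no direction to this role. Kif11, the Eg5 motor that pushes the spindle poles apart, had 30, 36, 37, 47 and 49 reads in Control and 17, 17, 20, 24 and 24 in 1C-MIM. The groups were well apart, with a log2 fold change of -0.92 ± 0.192 (edgeR adjusted p = 0.00648). Tpx2 encodes the protein that activates Aurora A and carries it to the spindle. It had 256, 187, 157, 207 and 221 reads in Control and 346, 290, 313, 277 and 328 in 1C-MIM. Every 1C-MIM library was above every Control library, and the log2 fold change was 0.64 ± 0.133 (edgeR adjusted p = 0.00648). All 5 Tpx2 transcripts in the tables shared nearly all of their reads, with 2581 to 2582 each over the 10 libraries.

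The proteins of Tpx2, called higher, and Aurka, called lower, act as a pair. The ratio of Tpx2 to Aurka reads was 0.449, 0.356, 0.35, 0.383 and 0.378 in Control, and 0.933, 0.742, 0.742, 0.658 and 0.837 in 1C-MIM. The lowest 1C-MIM ratio exceeded the highest Control ratio. The log2 difference was 1.02, and 0.96 to 1.08 as each library was left out. Since the calls of the genes fixed its direction, the ratio adds no evidence to them.

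The other 4 genes of this role did not pass the test. Kif23, a motor of the central spindle, was at 0.596 ± 0.212 CPM in Control and 0.343 ± 0.0599 in 1C-MIM (edgeR adjusted p = 0.0667). Prc1, which bundles the central spindle, was at 1.05 ± 0.415 and 0.894 ± 0.188 CPM. Kif20a, a motor of cytokinesis, was at 6.09 ± 1.20 and 5.76 ± 0.560 CPM, and Nusap1, a spindle microtubule binder, at 0.846 ± 0.119 and 0.780 ± 0.136. The fitted changes of Prc1, Kif20a and Nusap1, like those of Lig1 and Ccnd2, took both signs over the alternatives.

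**Figure D3:**
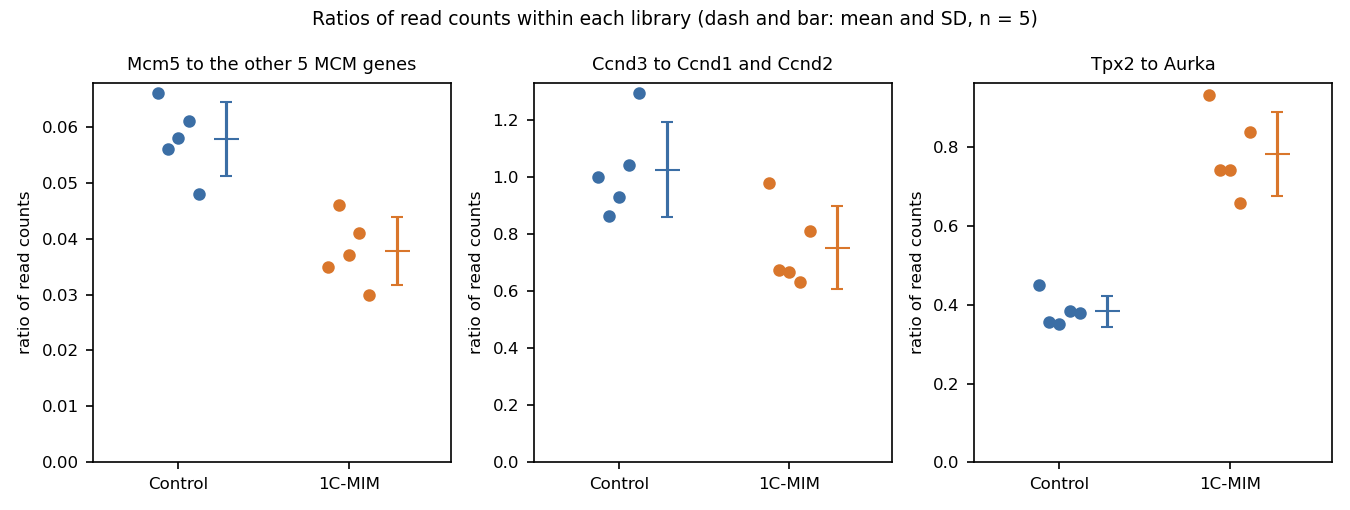
Ratios of read counts within each library, on linear axes from 0, for 5 Control (blue) and 5 1C-MIM (orange) libraries; dash and bar are mean and SD. Mcm5 to the other MCM genes and Tpx2 to Aurka show separate groups, and Ccnd3 to Ccnd1 and Ccnd2 overlaps.

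Weakly expressed genes showed the larger decreases. The 33 tested genes were split by their mean FPKM over all libraries. The 16 with the lower levels, 0.0581 to 0.533 FPKM, had a median log2 fold change of -0.85, and 8 were called lower and 0 higher. Among the 8, Birc5, Ccnb2, Cdk1 and Ube2c reached the filter level in 5 Control but only 0, 1, 1 and 2 1C-MIM libraries. The 17 with the higher levels, 0.658 to 10.2 FPKM, had a median of -0.16, and 6 were called lower and 1 higher. Over all tested genes, at any level, 11.8% were called lower and 9.78% higher. The filter favours weak genes that were high in either group, so this contrast is a description with no test.

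**Figure D4:**
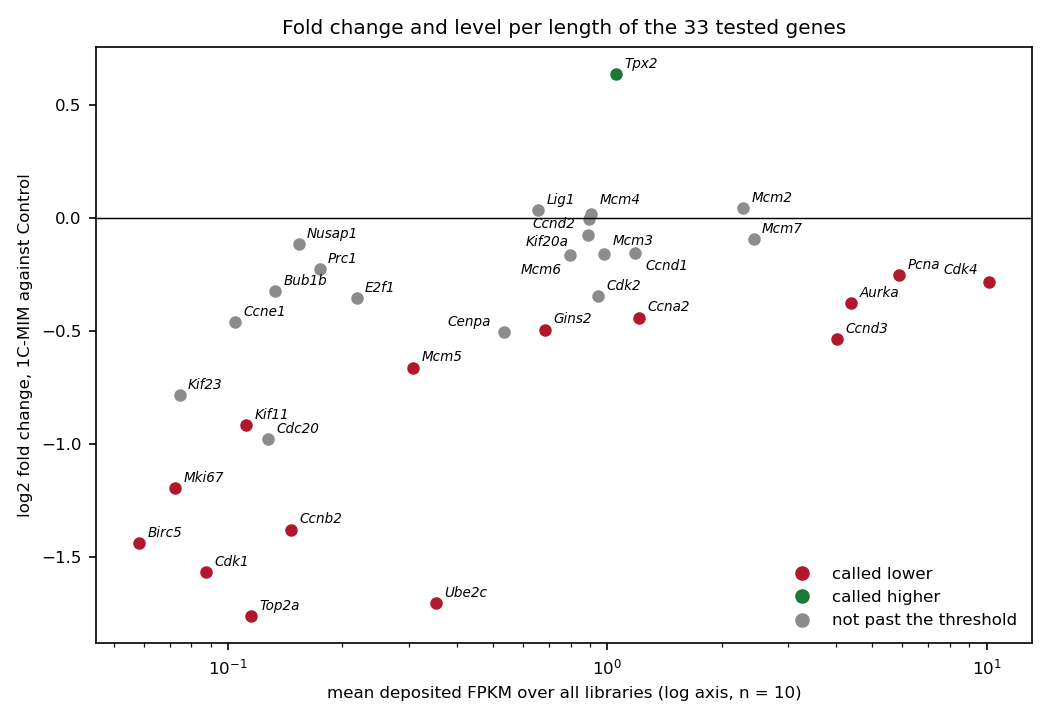
edgeR log2 fold change against the mean deposited FPKM over all 10 libraries (log axis) for the 33 tested genes, coloured by call. Decreases beyond -1 on the log2 scale all lie below 0.533 FPKM, and the genes with the highest levels, Cdk4 and Pcna, lie at -0.29 and -0.25.

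The libraries differed in how strongly they showed the pattern. The median deviation of the 33 genes from their Control mean was -0.44, -0.37, -0.30, -0.40 and -0.20 in 1C-MIM 1 to 5 on the log2 scale, all below the Control libraries, which ran from -0.10 to 0.14. Control 5 was the highest Control library in 14 genes and Control 1 in 12, while Control 2 was the lowest in 12. Without Control 1 and Control 5, 9 genes were called lower and 1 higher, beside 6.94% and 5.92% of all genes, and the median log2 fold change was -0.22. The deposited names number the animals in the 200s (3 per group) and the 300s (2 per group), with no meaning given. Within the 200s the median was -0.32 and within the 300s -0.31. In each of these smaller comparisons 1 gene, Top2a, was called lower, beside 0.459% of all genes in the 200s and 1.93% in the 300s.

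**Figure D5:**
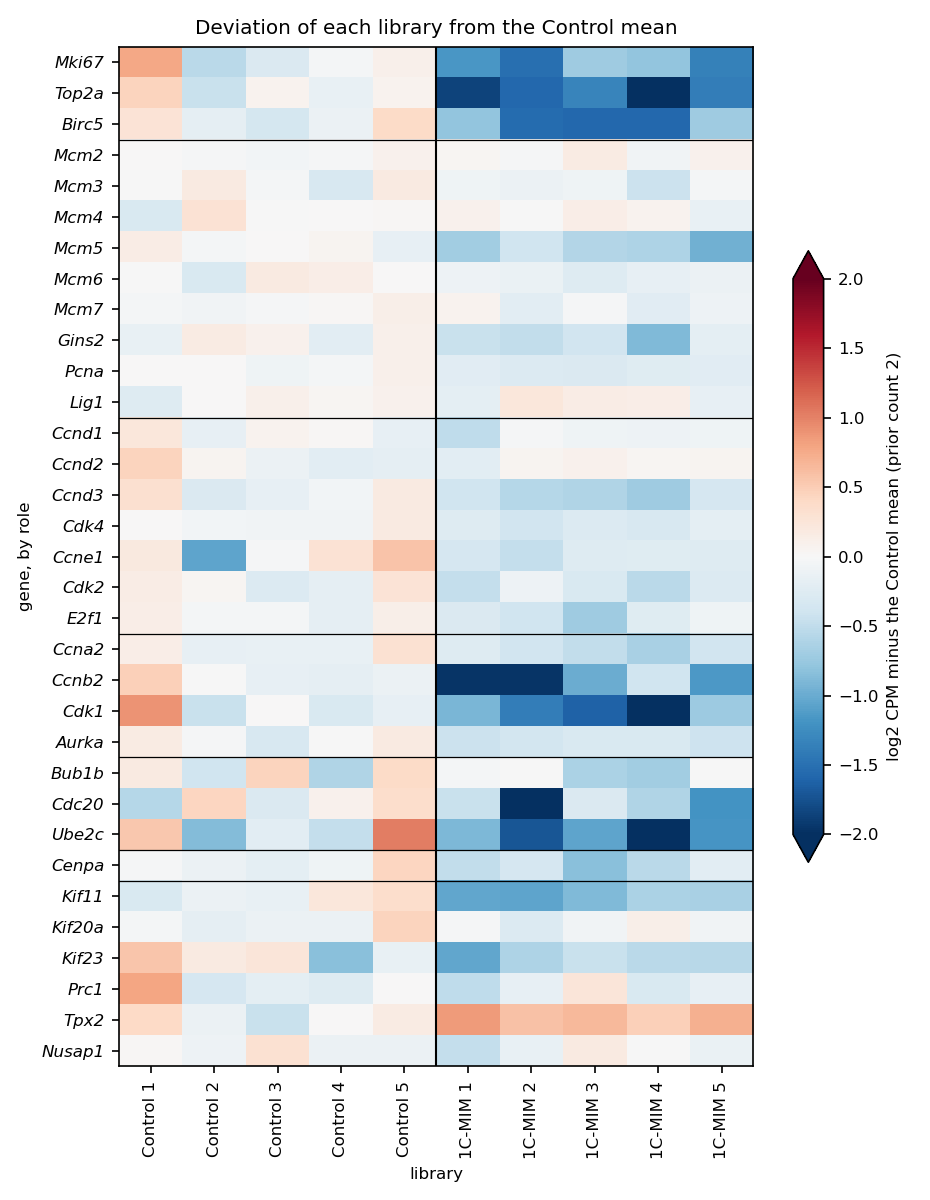
Log2 CPM (prior count 2) of each tested gene in each library minus its Control mean, with blue for lower and red for higher; the scale ends at 2.0 in either direction and stronger values take the end colour. Genes are ordered by role. The Mki67, Top2a and Birc5 cells are blue in all 5 1C-MIM libraries, the Tpx2 cells are red in all 5, and Control 1 is reddest in Cdk1.

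Some reads may belong to neighbours, since strand use is not stated and the GRCm38 annotation places genes on the opposite strand over exons of several members. Cdk4 shares 641 exon bases with Tspan31, which was also lower (log2 fold change -0.26), and Ccnd3 shares 361 with Bysl, also lower (-0.28). Ccna2 shares 510 with Exosc9 and Gins2 shares 2758 with Gse1, neither of which was called. For Mki67, Top2a, Birc5, Mcm5, Pcna, Ccnb2, Cdk1, Aurka, Kif11 and Tpx2 no exon of a gene measured in the tables was found on the opposite strand.

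Longer lists covered the wider machinery. Of 45 tested replication genes beyond the 40, 6 were lower and 2 higher, with a median log2 fold change of -0.13, beside 11.8% lower and 9.78% higher of all genes. The lower share was near that of all genes and the higher share below it, so neither is a result about this list. Uhrf1, which recruits the maintenance DNA methyltransferase, fell by 1.38 ± 0.341 on the log2 scale (edgeR adjusted p = 0.0139). Rfc3, of the clamp loader, fell by 0.44 ± 0.13, and Rnaseh2a, of the enzyme that removes ribonucleotides from DNA, by 0.31 ± 0.067. Pole, the leading-strand polymerase, rose by 0.67 ± 0.135 and Rrm1, the large subunit of ribonucleotide reductase, by 0.20 ± 0.056 (edgeR adjusted p = 0.00534 and 0.0245). Cdt1, Rrm2 and Tyms were also lower, named after their values had been seen. The lower count was 2 to 6 as each library was left out, and at most 3 when the library left out was Control 4 or 5 or 1C-MIM 2 or 3.

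Of 38 tested mitosis genes beyond the 40, 5 were lower and 1 higher, with a median of -0.15, and 27 more were below the filter. The lower share was thus near the 11.8% of all genes, and the higher share was below 9.78%, so neither is a result about this list. Racgap1, of the centralspindlin complex with Kif23, fell by 0.82 ± 0.138 (edgeR adjusted p = 0.00217), from 54 to 59 reads in Control to 28 to 34 in 1C-MIM. Ube2s, the enzyme that extends ubiquitin chains for the APC/C, fell by 0.39 ± 0.096, and Fzr1, its G1 activator, by 0.23 ± 0.064. Anapc1, the largest APC/C subunit, rose by 0.33 ± 0.087 (edgeR adjusted p = 0.0178). Cdca8 and Kif22 were the remaining lower genes, named after their values had been seen. This lower count was 2 to 7 as each library was left out, and at most 3 when that library was Control 5 or 1C-MIM 2, 3 or 4.

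Of 15 tested regulators of the RB and E2F pathway, 2 were lower, a share near the 11.8% of all genes, and 4 were higher, beside 9.78% of all genes. E2f2, an activating E2F, fell by 0.83 ± 0.162 (edgeR adjusted p = 0.00496), and Rbbp4, a histone chaperone of RB and MuvB complexes, by 0.21 ± 0.059. Tfdp2, an E2F partner, rose by 0.38 ± 0.072, Rbl2, the pocket protein p130 of quiescent cells, by 0.36 ± 0.082, and Rb1 by 0.39 ± 0.09 (edgeR adjusted p = 0.00378, 0.00901 and 0.0102). E2f6, a repressive E2F, was the remaining higher gene. CDK inhibitors, the brakes of the cycle, were lower in 4 of 7 and higher in 0, beside the same shares of all genes. Cdkn2a, the locus of p16 and ARF, had 45 to 93 reads in Control and 10 to 41 in 1C-MIM. It fell by 1.55 ± 0.32 (edgeR adjusted p = 0.00626), Cdkn2b, p15, by 0.59 ± 0.14, and Cdkn2d, p19, by 0.32 ± 0.068. Cdkn2c was the remaining lower one.

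Levels of markers of several cell types that can divide differed between the groups, beside 11.8% of all genes called lower and 9.78% higher. Of 12 macrophage markers, 11 were tested and 9 were lower, and their summed level was 282.1 to 533 CPM in Control and 161 to 233 in 1C-MIM. The tested macrophage markers not called were Mrc1 and Cd163, with log2 fold changes of -0.218 and 0.186. Of 9 satellite cell and myoblast markers tested 4 were lower, with sums of 81.7 to 88.2 CPM against 58.7 to 66.1. The 4 were Myod1, Myog, Vcam1 and Tmem8c. Of the 4, Myod1 had the highest level, at 35.6 ± 3.26 CPM in Control and 23.7 ± 2.92 in 1C-MIM (SD, n = 5). The difference in sums repeats these calls in large part. Myog, a factor of myoblast differentiation, had 199 to 424 reads in Control and 95 to 142 in 1C-MIM, and Tmem8c, the fusion protein myomaker, had 68 to 207 against 2 to 19. The other 5 tested markers did not pass: Pax7, which defines satellite cells, was at 1.36 ± 0.360 CPM in Control and 1.23 ± 0.267 in 1C-MIM (edgeR adjusted p = 0.652), Cdh15 at 23.2 ± 1.67 and 24.9 ± 2.56, and Myf5, Chrdl2 and Msc likewise were not called. Calcr was below the filter. Fibro-adipogenic progenitor markers were lower in 6 of 8, with sums of 903 to 1275 CPM against 655 to 971, which overlapped. Of these markers Pdgfra and Dcn were not called, with log2 fold changes of 0.029 and 0.072. Lymphocyte markers were lower in 3 of 6 tested, with sums of 11.98 to 19.2 CPM against 7.81 to 9.89. The 3 were Ptprc, Cd4 and Cd52, which other leukocytes also express. The T cell marker Cd3e was at 1.382 ± 0.2997 CPM in Control and 1.276 ± 0.2426 in 1C-MIM (edgeR adjusted p = 0.69), the B cell marker Cd79a was not called, and 4 markers were below the filter.

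Endothelial markers were higher in 6 of 8, with sums of 204 to 280 CPM in Control and 288 to 339 in 1C-MIM. Of these markers Pecam1 and Cldn5 were not called, with log2 fold changes of 0.22 and -0.119. Myofibre markers were higher in 4 of 10 and lower in 0. Smooth muscle and pericyte markers were higher in 2 of 8, Schwann cell markers in 1 of 8 and erythroid markers in 1 of 5 tested, and granulocyte and mast cell markers were lower in 1 of 4 tested; counts this small, beside 9.78% of all genes higher and 11.8% lower, give no direction to these types. Every marker list was detected, myofibre genes strongly, and no marker was at 0 in all libraries; Cd3g and S100a8 were each at 0 in at least 1. The part of these cell types in the lower levels of the replication and mitosis genes was not tested.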

How the data were processed

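RNA-seq tables from quadriceps of 5 Control and 5 1C-MIM mice were analysed, grouped by the titles. Per the file headers, each table gives a count, an FPKM and a TPM per transcript. Whole-number counts were deposited by the authors without normalization; FPKM values, made by the authors per transcript length and library total, were used for levels between genes; TPM values deposited by the authors were not used. The submitters' processing notes name, with no role or order, build GRCm39 and bedtools 2.30.0, DESeq2 1.28.0, featureCounts, Picard 2.27.4, Salmon 1.5.2, SAMtools 1.15.1, STAR, StringTie 2.2.1, Subread 2.0.1 and Trim Galore 0.6.7. Isoforms share reads, so each symbol was taken as its transcript with most reads; 11 of the 40 genes had several.

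Counts were filtered (filterByExpr), scaled by TMM and compared with edgeR 4.0.16 in R 4.3.3 (quasi-likelihood F test, robust). The standard error is the size of the log2 fold change divided by the square root of F. The script was tested on simulated data. Library totals of 28521254 to 31771296 reads set counting precision; reads without molecular identifiers are not independent molecules. Each library is 1 animal per the deposited names; p-values measure the spread between these animals. Ratios of reads within a library are given without a test. Alternatives were other scalings, filters and thresholds, DESeq2 1.42.0, limma-voom (limma 3.58.1), blocks, libraries left out, summed transcripts and removal of length trends (natural spline, 3 inner knots). Promoters came from RefSeq (GRCm38.p6); the GRCm38 annotation served for overlaps only, and gene coordinates in GRCm39 are not given.

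All 40 genes are named; those called, with values per library or ranges; from each wider list, the 3 called genes with the smallest p per direction. The genes, lists and alternatives were chosen with earlier results of these data known.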

Additional observations from a re-analysis of the deposited data

Results flagged for a closer look

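In 9 of the 80 sets of 5 libraries examined (40 genes in both groups), the most extreme library lay apart from the other 4 by Dixon's criterion, which chance meets in about 1 set in 20. Control 1 was apart and high in 3 genes: Ccnb2 at 0.856 CPM (others 0.513 to 0.587), Cdk1 at 1.27 (0.457 to 0.649) and Prc1 at 1.78 (0.783 to 1.01). It was apart and low in Lig1, at 3.18 CPM (3.85 to 4.11). Control 5 was apart and high in Cenpa, at 2.09 CPM (1.33 to 1.51), and Kif20a, at 8.21 (5.28 to 5.85). 1C-MIM 1 was apart and low in the cyclins Ccnd1, at 6.15 CPM (8.14 to 8.59), and Ccnd2, at 8.19 (9.74 to 10.1). 1C-MIM 4 was apart and low in Mcm3, at 4.07 CPM (5.05 to 5.36). Ccnb2 and Cdk1 were the called genes among these, and edgeR called both lower without Control 1.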

How the results depend on the processing

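The 27 alternatives held 814 tests of a gene, at most 25 for each gene. Of these tests, 756 left the gene called or uncalled as before, 50 lost a call, 8 gained one and 0 changed direction while called. The 756 include changes of sign in uncalled genes, 8 of which took both signs. Top2a was the only 1 of 15 called genes to keep its call in every alternative run. As each library was left out, edgeR called 13 to 15 of the 40 genes lower and 1 higher, 941 to 1885 of all genes lower and 739 to 1558 higher, and 2 to 6 wider replication and 2 to 7 wider mitosis genes lower; the median ran from -0.41 to -0.29. The all-gene counts were lowest without 1C-MIM 4. Library totals gave 2896 lower and 606 higher in all, with 13 and 9 in the wider lists. A filter of 1 CPM in 5 libraries gave 10 of the 40 lower and 1 higher, beside 12.5% and 11.5% of all genes. It gave 3 and 3 in the wider lists, and limma-voom gave 3 in wider replication. The 200s alone gave 1 lower and 0 higher of the 40, 64 and 31 of all, and 0 in the wider lists; the 300s alone 1 and 0, 269 and 127, and 0. Without Control 1 and Control 5, 9 of the 40 were lower, 976 and 832 of all lower and higher, 1 and 1 in the wider lists, median -0.22. Removing the length trend gave 11 of the 40 lower and 1 higher, beside 7.91% and 8.35% of all genes, and 3 and 3 in the wider lists. An adjusted p under 0.1 gave 2114 higher in all and 10 and 10 in the wider lists; a fold of at least 1.5 gave 8 of the 40, 537 lower and 193 higher of all, and 3 in wider mitosis. Smaller groups test fewer animals; for the other changes the cause was not tested.

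The labels do not state whether replicate numbers pair the animals. Same-number correlations ran from -0.08 to 0.39, and 2 Control libraries correlated best with their own number. With 5 libraries per group these correlations cannot decide whether the animals were paired. With a replicate block, 15 of the 40 were lower and 1 higher, beside 14.2% lower and 13.9% higher of all genes in that fit. Birc5, Ccnb2 and Cdk1 had 3 to 37 reads a library, so counting error limits their values.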
